A study of Mus musculus with 2 samples.

Results

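Mir126a, Mir126b, Mir221 and Mir222 are 4 microRNA genes known from the cells that line blood vessels, and their counts were read in 2 small RNA libraries of the mouse heart. The genes were chosen by name in the GENCODE M21 annotation, and the 4 genes are among 2202 counted microRNA genes. Each library came from the heart of a male B6CASTF1/J mouse, an F1 hybrid of the C57BL/6J and CAST strains, aged 10 days. The labels state no mutation and no treatment. The labels number the libraries as biological replicates 1 and 2 of 1 group. They name separate tissue samples but give 1 donor identifier to both, so the spread between the samples may be technical. The p-values below set the difference between the 2 libraries against counting error only and hold no term for the spread between samples. They give heart tissue as the source, so endothelium was not sorted from the other cells of the organ.

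MicroRNAs are short RNAs that are cut from a hairpin and guide the silencing of messenger RNAs. Most pairing runs through the seed, bases 2 to 8 of the mature strand. miR-126, encoded inside the endothelial gene Egfl7, is the best known microRNA of endothelium and sustains signalling by vascular growth factor through repression of its inhibitors. miR-221 and miR-222 are made from neighbouring hairpins, repress the cell cycle inhibitor Cdkn1b and the receptor Kit, and are present in endothelium, in smooth muscle and in other dividing cells.

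The RefSeq table (build GRCm38.p6) held all 4 hairpins and 6 mature forms of the 4 genes. It had no entry for miR-126a-5p or miR-222-5p, so these strands are neither printed nor marked in the hairpins below. The mature forms are printed first because the seed sets which of the genes act as 1 family, with bases 2 to 8 in capitals.
miR-126a-3p: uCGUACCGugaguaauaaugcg
miR-126b-5p: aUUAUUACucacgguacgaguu
miR-126b-3p: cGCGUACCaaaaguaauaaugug
miR-221-3p: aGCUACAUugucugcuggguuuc
miR-222-3p: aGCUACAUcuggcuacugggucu
miR-221-5p: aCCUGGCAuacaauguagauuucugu
The 6 forms held 5 different seeds, and miR-221-3p and miR-222-3p had the same one. Both are 23 bases long. Compared position by position without gaps, they share the first 8 bases, then 3 of the other 15 positions. In all, 11 of 23 positions are identical, and an alignment with gaps was not made. Of the 1738 mature forms in the table, only miR-1928 also had this seed, and no other form had the seed of miR-126a-3p or of either miR-126b strand. Mir1928 had 0 counts in both libraries, which allows up to 0.800 CPM in replicate 1 and 0.476 CPM in replicate 2 (CPM is the count scaled to 1000000 counts over all microRNA genes, and the limit is 3 counts).

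The Mir126a and Mir126b hairpins are printed because they are the same stretch of chromosome 2 read from opposite strands. Capitals mark the mature forms given above.
Mir126a, chr2:26591357-26591429, plus strand: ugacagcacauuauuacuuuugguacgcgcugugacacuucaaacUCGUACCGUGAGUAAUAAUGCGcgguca
Mir126b, chr2:26591363-26591420, minus strand: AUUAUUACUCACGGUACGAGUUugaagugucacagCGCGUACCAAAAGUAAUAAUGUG
All 58 bases of the Mir126b hairpin lie within Mir126a, and 19 positions of miR-126a-3p are also covered by miR-126b-5p on the other strand. Egfl7 runs on the plus strand (chr2:26580014-26593120), so Mir126a has the host's orientation and Mir126b is antisense to it. The hairpins are intronic in 8 of the 9 Egfl7 transcripts that span them and overlap an exon, with no annotated UTR, in 1. In the 4 Egfl7 transcripts with 10 exons they lie in intron 7. They also lie in an intron of Gm20532, a gene on the same strand that overlaps Egfl7.

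The Mir221 and Mir222 hairpins are printed because they are neighbours that yield mature forms with the same seed. Capitals again mark the mature forms.
Mir221, chrX:19146294-19146388, minus strand: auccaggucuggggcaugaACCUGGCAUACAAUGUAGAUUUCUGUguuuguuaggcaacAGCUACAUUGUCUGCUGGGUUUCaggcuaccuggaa
Mir222, chrX:19146893-19146971, minus strand: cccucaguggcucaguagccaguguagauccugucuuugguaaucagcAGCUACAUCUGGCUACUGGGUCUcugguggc
They lie 504 bases apart on the minus strand of the X chromosome, outside any annotated host gene. The nearest annotated gene is Gm14636, a processed transcript 10009 bases away on the same strand. The predicted minimum free energy of folding was -42.8 kcal/mol for the Mir221 hairpin, -40.7 for Mir222, -31.2 for Mir126a and -19.3 for Mir126b. GC content was 39.7% in Mir126b, 45.2% in Mir126a, 47.4% in Mir221 and 54.4% in Mir222. On the same strand, no member shared more than 12 bases with any other of the 2202 counted hairpins. The longest such stretch was 11 bases for Mir126a and 12 bases for Mir126b, Mir221 and Mir222.

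The libraries held 3748432 counts on the gene strand in replicate 1 and 6305782 in replicate 2. Reads with several mapping positions, 36.8% and 48.1% of all reads, were in no gene's count. Genes that reached 10 counts in each library are called detected, and there were 340. Intervals below are exact Clopper-Pearson 95% intervals. Like the limits from 3 counts, they cover counting error only, since the reads were amplified. Markers of heart muscle were present, led by Mir499 at 3678 and 7542 CPM, and the 7 genes of that list held 0.832% and 1.25% of the counts. Smooth muscle markers, Mir143 and Mir145a, held 4.48% and 5.33%. Red cell markers held 1.02% and 0.885%, fibroblast markers 0.393% and 0.794%, and leukocyte markers 0.196% and 0.219%. Epithelial markers held 0.0476% and 0.0546%, and the hepatocyte gene Mir122 had 57.9 and 77.7 CPM. Markers of neurons had 2 counts in each library over 6 genes, 4 of them at 0. All these marker values leave out reads with several mapping positions. A gene whose mature form also matches another place can therefore be undercounted, and the loss per list was not tested. The lists cannot be ranked against each other as parts of the heart. The counts are per hairpin gene, so the 2 strands cut from a hairpin cannot be told apart.

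Mir126a carried nearly all of the counts of the 4 genes. It had 333445 counts in replicate 1 and 634127 in replicate 2, which is 8.90% of all microRNA counts (interval 8.87% to 8.92%) and 10.06% (10.03% to 10.08%). The 2 libraries were close, with a mean of 94759 ± 8207 CPM (SD, n = 2), at rank 3 in replicate 1 and rank 2 in replicate 2. Share and rank hold among counted reads only, since reads with several mapping positions are left out. Of all reads of the library, the 4 genes together held 3.81% in replicate 1 and 3.74% in replicate 2. In these bulk libraries fewer cells of a type and less RNA per cell cannot be told apart. By mean level it stood between Mirlet7i (110313 and 81404 CPM) and Mirlet7g (72901 and 66863 CPM), both of the let-7 family of developmental timing. The values of Mir126a, 88956 and 100563 CPM, fell inside the range of Mirlet7i, so these neighbours did not differ beyond their spread, and both lay above those of Mirlet7g.

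Mir221 was far lower than Mir126a and differed between the libraries. It had 2788 counts, or 744 CPM (interval 716 to 772), in replicate 1 and 2446 counts, or 388 CPM (373 to 404), in replicate 2. Its mean was 566 ± 252 CPM (SD, n = 2), at ranks 83 and 95 of all genes. Replicate 1 was the higher library by far more than counting error.

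Mir222, the partner of Mir221, was lower still. It had 144 counts in replicate 1, or 38.4 CPM (interval 32.4 to 45.2), and 274 counts in replicate 2, or 43.5 CPM (38.5 to 48.9). The mean was 40.9 ± 3.56 CPM (SD, n = 2), at ranks 204 and 186, and the intervals of the 2 libraries overlapped. Its mean lay below the median of the detected genes, 80.0 CPM.

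Mir126b was at the limit of detection. It had 3 counts in replicate 1, or 0.800 CPM (interval 0.165 to 2.34), and 1 count in replicate 2, or 0.159 CPM (0.0040 to 0.884). With so few reads the ratio of replicate 2 to replicate 1 had an interval from 0.0042 to 2.72, so no difference was detectable at this depth.

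**Figure D1:**
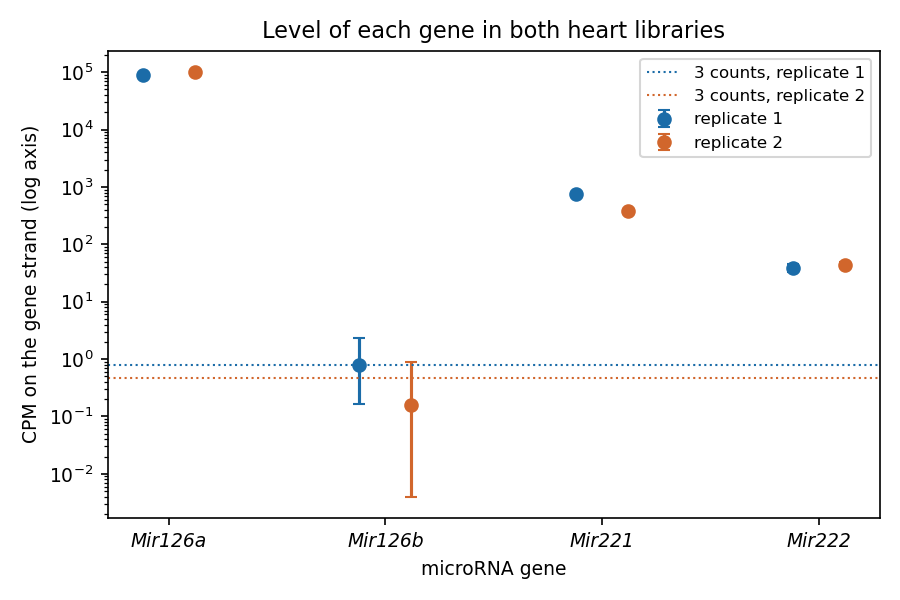
Level of the 4 genes as CPM on the gene strand (log axis), with 1 point per library, exact 95% counting intervals as bars, and dotted lines at the CPM of 3 counts. Mir126a lies near 94759 CPM in both libraries, Mir221 at 744 and 388 CPM, Mir222 at 38.4 and 43.5 CPM, and Mir126b has 3 counts and 1 count.

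The order Mir126a, Mir221, Mir222, Mir126b held in both libraries, and the values of no 2 of the genes overlapped. A read of a mature microRNA covers the whole molecule, so the counts do not grow with hairpin length. Per 100 bases of hairpin the order was the same, with 121857 and 137757 CPM for Mir126a, 783 and 408 CPM for Mir221, and 48.6 and 55.0 CPM for Mir222. Together the 4 genes held 8.97% of all counts in replicate 1 (interval 8.945% to 9.003%) and 10.1% in replicate 2 (10.08% to 10.12%). Mir126a made up 99.1% and 99.6% of these, so a sum over the 4 genes describes Mir126a alone.

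The strand of the reads decided which gene of the Mir126 locus was counted. The files give 3 counts per gene, on the gene strand, on the opposite strand and on both strands. On the gene strand of Mir126a there were 333445 reads in replicate 1 and on its opposite strand 3. In replicate 2 there were 634127 and 1. Mir126b showed the mirror image, with 3 and 1 reads on its own strand and 333439 and 634112 on the opposite one. The small reads of this locus therefore came from the Egfl7 strand in both libraries, with opposite-strand shares of at most 0.0026% and 0.00088% by the upper ends of the intervals.

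The count over both strands lost Mir126a almost entirely. It gave 6 reads in replicate 1 and 15 in replicate 2, and 0 for Mir126b in both, since, as the values show, it sets nearly all of the reads over these 2 genes aside. The reads of Mir126a lost there made up 33.6% of all reads that this count set aside as ambiguous in replicate 1 and 36.3% in replicate 2. For Mir221 and Mir222, which overlap no counted gene, the both-strand counts equalled the gene-strand counts. Neither had a read on the opposite strand. For Mir221 this allows a share of up to 0.108% and 0.123%, and for Mir222 up to 2.08% and 1.09%. The level of Mir126a in these tables therefore rests on the count for the gene strand.

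**Figure D2:**
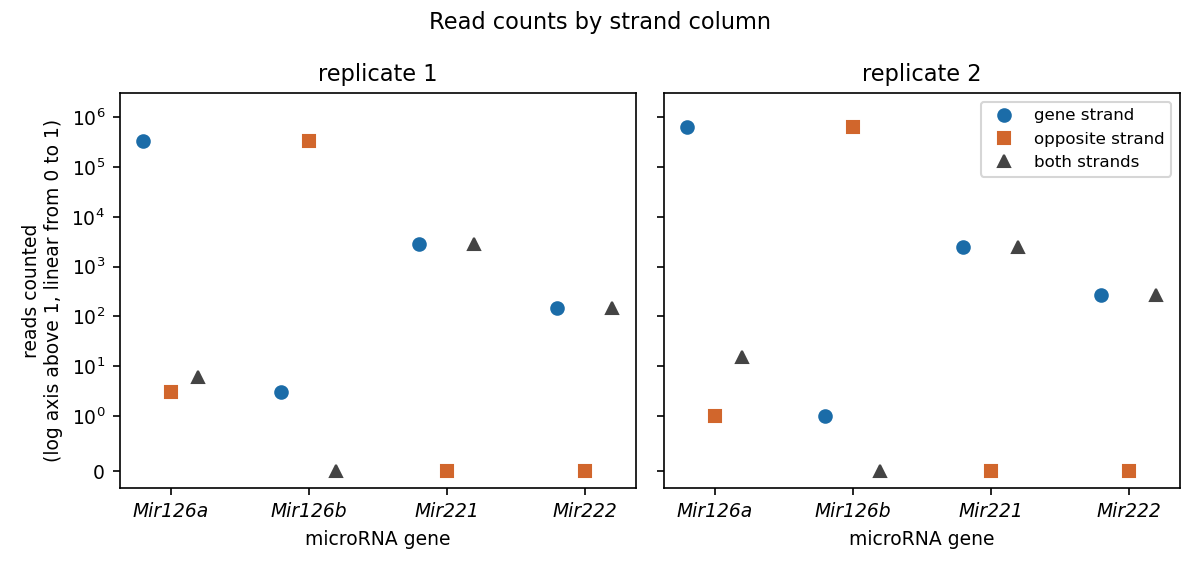
Reads per gene in the gene-strand, opposite-strand and both-strand counts of each library (log axis above 1, linear from 0 to 1). Mir126a and Mir126b mirror each other, the both-strand count of Mir126a is 6 in replicate 1 and 15 in replicate 2, and Mir221 and Mir222 have 0 reads on the opposite strand.

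In all, 32 pairs of counted microRNA genes overlapped on opposite strands, and in 24 of them the more abundant gene was detected. In 2 of these 24 the other gene was detected as well. These were Mir3074-1, with 13.4% and 34.6% of the reads of its pair with Mir24-1, and Mir3107, with 3.83% and 5.52% of the pair with Mir486. In 14 of the 24 the other gene had 0 counts in both libraries. The locus of Mir451a, a red cell microRNA, was one of the latter, with 35953 and 52029 counts for Mir451a and 0 for Mir451b. The loci named here were chosen after their values were seen.

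Mir221 and Mir222 were compared within each library, which needs no scaling between libraries. Mir221 held 95.1% of the reads of the pair in replicate 1 (interval 94.2% to 95.8%) and 89.9% in replicate 2 (88.7% to 91.0%). Mir221 thus exceeded Mir222 by 19.4-fold in replicate 1 and 8.93-fold in replicate 2, or 16.1-fold and 7.42-fold per base of hairpin. The ratio was 2.17-fold lower in replicate 2 (95% interval 1.76 to 2.67). That difference passed an exact two-sided Fisher test (p = 1.02e-13, adjusted over the 6 pairs of the 4 genes 3.07e-13), which compares these 2 libraries and not conditions.

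Mir126a and Mir222 stood in nearly the same proportion in both libraries. There were 2316 reads of Mir126a for each read of Mir222 in replicate 1 and 2314 in replicate 2, and the exact Fisher test gave an adjusted p of 1.00. The 95% interval for the ratio of these proportions ran from 0.817 to 1.22. Mir126a to Mir221, by contrast, was 119.6 in replicate 1 and 259 in replicate 2, a 2.17-fold difference (interval 2.05 to 2.29, adjusted p = 1.69e-168 by the same exact test). The 3 pairs with Mir126b did not pass. Of the 3 detected genes, Mir221 was thus the one whose proportion to both of the others differed between the libraries.

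The direction for Mir126a and Mir222 depended on what a library was scaled to, whereas that of Mir221 did not. With scalings to microRNA counts the log2 ratios of Mir126a and Mir222 were positive. They were negative only per mapped read and per read of the library, which also count reads outside the microRNA genes. The counts of replicates 2 and 1 were compared by an exact two-sided binomial test after TMM scaling, a scaling that takes most genes as unchanged, with Benjamini-Hochberg adjustment over the 340 detected genes. By that test 72.1% of all detected genes differed between the libraries, with 34.1% higher in replicate 2 and 37.9% lower. Differences of 2-fold or more that passed made up 19.7%. The 3 members that were detected passed, 2 as higher and 1 as lower, and none reached 2-fold. Since most genes passed, their passing says little about them in particular. The median log2 ratio of all detected genes was -0.05.

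Mir221 had a log2 ratio of -0.80 (replicate 2 over replicate 1, adjusted p = 1.26e-87), and 111 of the 340 genes differed more. It was lower in replicate 2 under each of 5 scalings, by a log2 ratio between -0.72 with DESeq2 size factors and -1.21 per mapped read. Mir126a had a log2 ratio of 0.32 (adjusted p below 1e-300) and 233 genes differed more. The value was 0.18 with total microRNA counts and 0.40 with DESeq2 size factors, but -0.095 per mapped read and -0.020 per read of the library. Per 1000000 reads of the whole library Mir126a had 37738 in replicate 1 and 37228 in replicate 2. Mir222 had a log2 ratio of 0.32 (adjusted p = 0.044), which did not pass with total counts (0.18, adjusted p = 0.30) and was -0.096 per mapped read and -0.021 per read of the library.

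**Figure D3:**
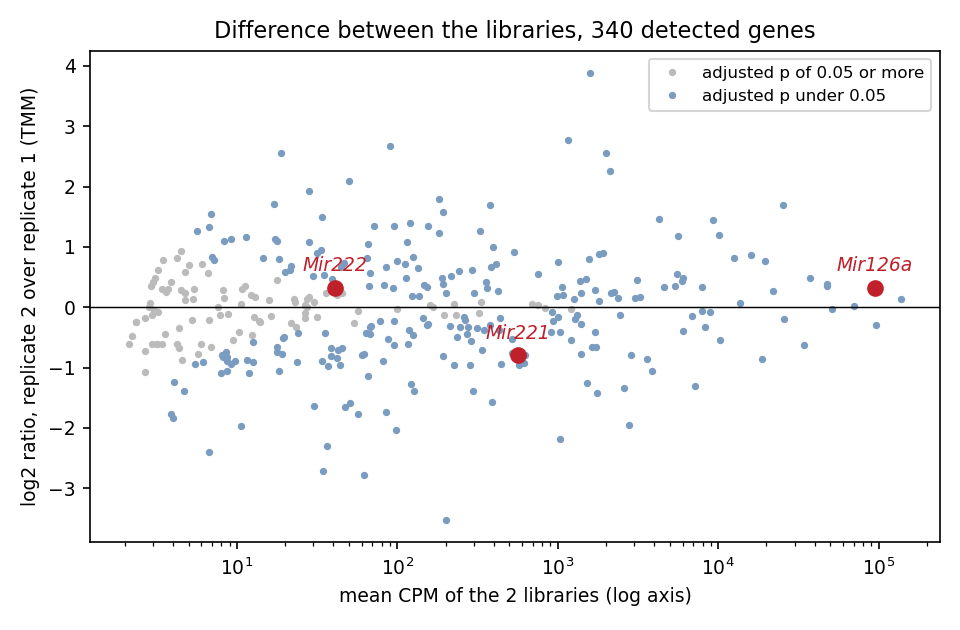
Log2 ratio of replicate 2 over replicate 1 after TMM scaling against mean CPM (log axis) for the 340 detected genes, with the 3 detected members in red. Mir126a and Mir222 both lie at 0.32 and Mir221 at -0.80, inside the cloud of all genes.

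The unequal behaviour of the Mir221 and Mir222 hairpins was set beside that of other neighbouring hairpins. This comparison was chosen after the values of the pair were seen and has no test. Among 88 pairs of detected genes at most 1000 bases apart on 1 strand, the log2 ratios of the 2 genes differed by a median of 0.70. For Mir221 and Mir222 they differed by 1.11, and 25 of the 88 pairs differed more. The pair also had log2 ratios of opposite sign, as did 36 of the 88 pairs. Its level ratio, 13.8-fold between the mean CPM values, was larger than the median of 5.25-fold, and 25 pairs had a larger one. With at least 100 counts for both genes in each library, 14 of 51 pairs differed more than Mir221 and Mir222, and the median was 0.75.

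**Figure D4:**
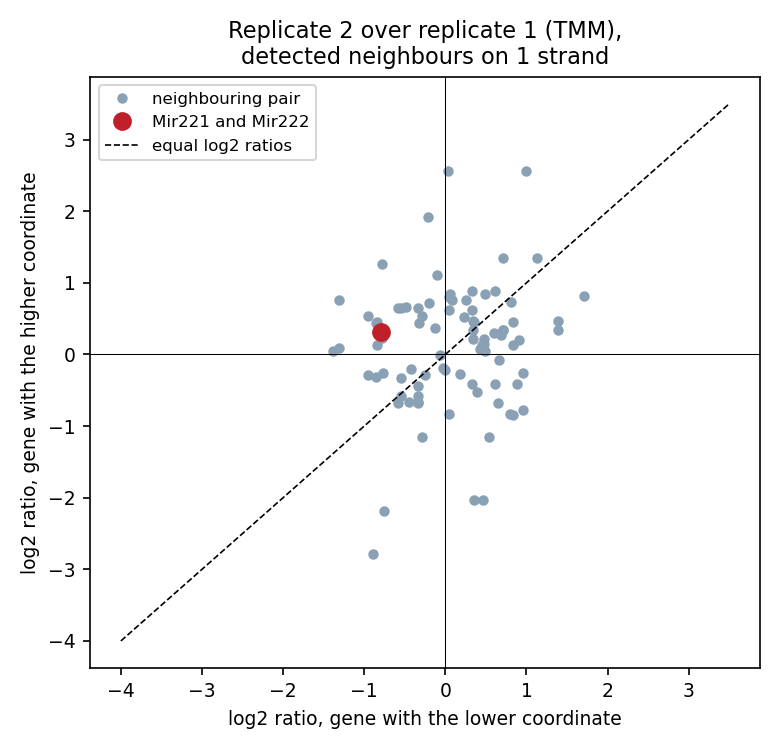
Log2 ratio of replicate 2 over replicate 1 after TMM scaling for both genes of 88 neighbouring pairs, with the gene of lower coordinate on the x axis and the dashed line marking equal ratios. The pair of Mir221 (-0.80) and Mir222 (0.32), in red, lies off the line, and 25 pairs differ more.

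Other microRNAs linked to vessel growth were taken from a list of 43 names, of which 42 were matched and 38 were detected. The list held the miR-17-92 and miR-23/27/24 clusters, among others. By the same test 19 of the 38 were higher in replicate 2, 13 were lower and 6 did not pass. That is 84.2% called, against 72.1% of all detected genes. The test calls a gene more readily the more counts it has, and these 2 shares were not matched for level. Their median log2 ratio was 0.18, against -0.05 for all genes. The split moved with the scaling, to 17 higher and 15 lower with total counts, 22 and 11 with DESeq2 size factors, 12 and 21 per mapped read and 14 and 19 per read of the library. Over all detected genes the shares called higher and lower were 28.5% and 42.9% with total counts, 36.5% and 33.2% with DESeq2 size factors, 17.9% and 55.9% per mapped read and 20.3% and 51.2% per read of the library.

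Mir378a, with 138757 and 137851 CPM, was the most abundant gene of that list and lay above Mir126a in both libraries. It lies on chromosome 18, which the rule for named genes left out. The next 6 by mean level lay below Mir126a in both libraries. Mir23b had 44229 and 51212 CPM and Mir23a 32735 and 41593 CPM. These 2 hairpins share a stretch of 20 bases, so reads that fit both could be missing from each. Mir322, of an X-linked cluster tied to cell cycle exit, had 15463 and 23714 CPM. Mir130a, known to promote vessel growth by repressing antiangiogenic homeobox genes, had 5371 and 13314 CPM, a log2 ratio of 1.45. Mir100 had 7506 and 6146 CPM, and Mir17, of a proliferation cluster, 4274 and 4861 CPM. Under every one of the 5 scalings Mir322, Mir130a and Mir23a passed the test as higher in replicate 2 and Mir100 as lower. Mir23b (log2 ratio 0.35) and Mir17 (0.33) were higher with TMM scaling, total counts and DESeq2 size factors, but had log2 ratios of -0.060 and -0.086 per mapped read. Per read of the library Mir23b still passed as higher (0.015, adjusted p = 0.0010 by the exact binomial test), and Mir17 was at -0.011 (adjusted p = 0.50).

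Genes most like each member were found as those with the nearest log2 ratio among detected genes within 4-fold of its mean level. With 2 libraries this likeness rests on 1 ratio and only describes the tables. For Mir126a they were Mir23b (log2 ratio 0.35) and the smooth muscle microRNA Mir143 (0.38), among 10 candidates. For Mir221 they were Mir467d (-0.80) and the imprinted gene Mir433 (-0.80), among 99, and the hairpin of Mir467d shares 60 bases with another. For Mir222 they were Mir378d (0.32) and Mir125b-2 (0.33), among 127, and Mir125b-2 shares 24 bases with Mir125b-1.

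Shares held by the marker lists of other cell types also differed between the libraries. From replicate 1 to replicate 2 the counts of the fibroblast list went from 0.393% to 0.794%. Those of the heart muscle list went from 0.832% to 1.25% and those of the smooth muscle list from 4.48% to 5.33%. The leukocyte list went from 0.196% to 0.219% and the epithelial list from 0.0476% to 0.0546%, whereas the red cell list went down, from 1.02% to 0.885%. These are shares of the microRNA counts, and their direction per read of the library was not tested. Genes within a list did not all go 1 way. By the exact binomial test after TMM scaling, the leukocyte list had 3 genes higher in replicate 2 and 1 lower. Its most abundant gene, Mir155, went from 1430 to 1191 CPM. The red cell list had 1 gene higher and 2 lower, beside 34.1% and 37.9% of all detected genes. Mir21a alone had 9274 of the 14747 counts of the fibroblast list in replicate 1 and 38758 of 50097 in replicate 2. Mir221, which smooth muscle also makes, went from 744 to 388 CPM. The share of reads with several mapping positions went from 36.8% to 48.1%. The part of these in the values of Mir126a, Mir221 and Mir222 was not tested.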

How the data were processed

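Small RNA of 2 heart samples was sequenced as 1 library each. The authors' deposited tables hold raw counts of reads for each microRNA gene, without normalization, on build mm10 with annotation GENCODE M21 per the accompanying text. How reads were aligned and counted is not given in the sources here. The tables have no header, and the meaning of the 3 count columns was inferred from their values and from gene strands. The gene-strand column was used. A further 4 entries that name no gene (unmapped, several positions, outside genes, ambiguous) stayed out of gene totals. On the gene strand those other than ambiguous were 57.6% of reads in replicate 1 and 63.0% in replicate 2. Ambiguous reads were left out of these shares and of the totals of all reads and of mapped reads. The RefSeq hairpins of the 4 genes equalled those of the GENCODE transcripts. Folding energies came from ViennaRNA 2.7.2.

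TMM factors were computed with edgeR 4.0.16 over all counted genes. Counts of genes with at least 10 in both libraries were compared by an exact binomial test (scipy 1.17.1, prior of 0.5 counts for log2 ratios, adjusted p threshold 0.05). The biological coefficient of variation from the common dispersion of edgeR was 0.416. DESeq2 1.42.0 gave size factors as an alternative. The calculation was tested on simulated counts that held counting error only, so that test does not cover spread between samples. Named genes are the 4 members, 6 leading genes of the angiogenesis list outside chromosome 18 (this leaves out its top gene, Mir378a, which the report names beside them), the 2 genes nearest to each member in log2 ratio, genes sharing a seed, neighbours in rank and the leading marker of a cell type. The members, lists and tests were chosen with earlier results of these data known.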

Additional observations from a re-analysis of the deposited data

How the results depend on the processing

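In all, 63 alternatives were run, and 49 were labelled as the same. These kept direction and side of the threshold or moved by less than the SD over the libraries. Counts of genes had only to stay within a fixed fold of the main count. With 2 libraries, leaving 1 out always moves a mean by less than that SD. Those alternatives could only be labelled as the same, so the 49 overstates how stable the results were. With reads on both strands the mean of Mir126a was 2.73 CPM, that of Mir126b 0 and that of Mir222 56.2 CPM. The share of Mir126a was then 100% of Mir126a and Mir126b and 0.376% of the 4 genes, which held 0.0833% of all counts. That column sets aside nearly all reads of Mir126a, which overlaps Mir126b. The counts of Mir222 were the same in both columns, 144 and 274. Its CPM was higher because the both-strand total was smaller, 2756527 and 4558006 against 3748432 and 6305782. Mir222 did not pass with total counts (log2 ratio 0.18) or with all counted genes tested (0.32, adjusted p = 0.084). Per mapped read and per read, 2 scalings added after seeing the data, the log2 ratio turned to -0.095 and -0.020 for Mir126a (both passed) and to -0.096 and -0.021 for Mir222 (adjusted p = 0.58 and 0.95). These scalings moved the median of all genes by -0.41 and -0.34 from TMM, total counts by -0.14 and DESeq2 size factors by 0.08. With a 2-fold minimum 67 genes were called in place of 245, and 7 of the angiogenesis list in place of 32. Calls over all genes split into 116 higher and 129 lower with TMM, 97 and 146 with total counts, 124 and 113 with DESeq2 size factors, 61 and 190 per mapped read and 69 and 174 per read.

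Without one replicate or the other, levels ranged from 88956 to 100563 CPM for Mir126a, 0.159 to 0.800 for Mir126b, 388 to 744 for Mir221 and 38.4 to 43.5 for Mir222. A log2 ratio between the libraries has no value without either. No paired analysis was possible because the 2 libraries form 1 group. Depth limits Mir126b, with 1 to 3 counts, and the interval of Mir222, with 144 and 274.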
